A study of Mus musculus with 6 samples.

Results

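The results concern 45 genes that act in mitosis or in DNA replication, followed across all 6 libraries of a study of mouse fibroblasts. The genes were listed by name for their known roles, 20 in mitosis and 25 in S phase and replication. The rule uses no measured value, but the list was proposed with earlier results of these data known. All 45 were found among the 57180 gene identifiers of the deposited count table, and all 45 passed the filter on low counts that left 18143 genes for testing.

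Polyadenylated RNA was sequenced from cultured fibroblasts of the heart (cardiac), the tip of the tail and the lung. Cells of each origin received an adenovirus with Cre recombinase (Ad-Cre, named by the submitters as the GATA4 knockout) or an adenovirus with green fluorescent protein (Ad-GFP, the control). WT is the genotype recorded for every library, including those named as knockout. The medium was DMEM plus 10% serum throughout, and harvest was at 48 h. There is 1 library for each combination, so each origin has 2 libraries that differ in virus, and the labels do not say whether libraries came from separate cultures or animals. P-values therefore measure only the spread between these libraries, which may be technical.

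Dividing cells copy their DNA in S phase and separate the copies in mitosis, and the genes for each step are transcribed in waves. Before S phase the E2F transcription factors release the genes of replication: licensing factors load the MCM helicase at origins, and polymerases, the sliding clamp and the enzymes that make nucleotides follow. Later, in G2 phase, cyclin B and Cdk1, the mitotic kinases, and the spindle and kinetochore proteins appear, and RNA of both waves is low in cells that have left the cycle. Fibroblasts in culture divide in serum, and the levels of these genes are commonly read as a sign of how many cells in a culture are cycling.

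The libraries held between 26170316 and 33779069 counts. Gata4, the gene to be deleted, was not lower in libraries labelled Ad-Cre: it stood at 149 CPM (the count normalised for library size) in cardiac cells labelled Ad-Cre and 147 CPM with Ad-GFP, and at 19.2 CPM in lung cells labelled Ad-Cre and 14.7 CPM with Ad-GFP. Tail tip cells held 2 reads of it with Ad-Cre and 1 with Ad-GFP. The deleted part of the gene is not given, so a count over the whole gene checks nothing about its loss, and directions between viruses rest on the labels. All 10 fibroblast markers had reads in every library, with a summed level of 15070 and 23372 CPM in cardiac (Ad-Cre and Ad-GFP), 19145 and 20323 CPM in tail tip (Ad-Cre and Ad-GFP), and 8468 and 7821 CPM in lung cells (Ad-Cre and Ad-GFP). The 12 macrophage and leukocyte markers summed to 625 and 1047 CPM in cardiac (Ad-Cre and Ad-GFP), 4480 and 5278 CPM in tail tip (Ad-Cre and Ad-GFP), and 20.7 and 30.1 CPM in lung cells (Ad-Cre and Ad-GFP). In lung cells 7 of these 12 markers had reads with Ad-Cre and 10 with Ad-GFP. C1qa and C1qb were at 0 in both lung libraries, and Adgre1, C1qc and Fcgr1 in the one labelled Ad-Cre. Cd14 stood at 8.15 and 11.98 CPM in lung cells (Ad-Cre and Ad-GFP), and Mrc1 at 5.42 and 10.64 CPM (Ad-Cre and Ad-GFP). The libraries labelled Ad-Cre and Ad-GFP differed most in epithelial markers in cardiac cells, where 7 genes summed to 144 CPM and 14.4 CPM.

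The promoters of both groups are shown first, and whether their letters bear on the levels given below was not tested. Mitotic promoters are known for CCAAT boxes, bound by the factor NF-Y, and for the cell cycle homology region (CHR), through which the DREAM complex holds them silent in resting cells. Replication promoters are known for E2F sites. RefSeq windows of the GRCm38.p6 build were at hand for 36 of the 45 members, and the 250 bases before the annotated start were searched on both strands for CCAAT, for the CHR letters TTTGAA or else TTTAAA, and for the E2F cores TTCCCGC in one form, TTGGCGC in another, TTCGCGC in a further form and finally TTGCCGC. The first set below holds 3 mitotic genes with CCAAT and CHR letters close to the start, and the second holds 3 replication genes with E2F letters. Mcm6 and Rrm2 were chosen after their values were seen. Ccnb1, Cdc6, Pcna and E2f1 were also planned but are not shown, since their windows held 84, 81, 134 and 250 bases of their own exons. Of these, Ccnb1 held CCAAT, CHR and E2F letters, and Cdc6 held E2F letters. Pcna and E2f1 held no E2F letters. Capitals mark every match, and sequences run 5′ to 3′ on the gene's strand.
Cdk1, chr10:69352913-69353162, minus strand: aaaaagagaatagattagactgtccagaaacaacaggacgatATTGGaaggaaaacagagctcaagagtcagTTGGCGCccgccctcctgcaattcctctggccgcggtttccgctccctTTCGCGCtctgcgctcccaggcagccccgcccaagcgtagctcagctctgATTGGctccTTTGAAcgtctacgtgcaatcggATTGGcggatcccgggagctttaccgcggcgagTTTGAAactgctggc
Plk1, chr7:122159185-122159434, plus strand: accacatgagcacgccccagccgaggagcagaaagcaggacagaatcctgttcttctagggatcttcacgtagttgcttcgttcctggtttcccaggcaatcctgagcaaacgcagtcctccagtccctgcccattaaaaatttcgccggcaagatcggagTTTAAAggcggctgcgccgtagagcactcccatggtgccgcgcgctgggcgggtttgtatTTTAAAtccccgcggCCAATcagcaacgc
Cdc20, chr4:118437344-118437593, minus strand: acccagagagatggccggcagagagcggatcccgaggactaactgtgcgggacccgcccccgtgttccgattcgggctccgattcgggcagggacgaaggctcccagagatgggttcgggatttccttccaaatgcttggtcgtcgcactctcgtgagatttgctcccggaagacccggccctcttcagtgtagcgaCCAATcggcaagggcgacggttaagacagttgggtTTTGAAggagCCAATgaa
Mcm5, chr8:75109259-75109508, plus strand: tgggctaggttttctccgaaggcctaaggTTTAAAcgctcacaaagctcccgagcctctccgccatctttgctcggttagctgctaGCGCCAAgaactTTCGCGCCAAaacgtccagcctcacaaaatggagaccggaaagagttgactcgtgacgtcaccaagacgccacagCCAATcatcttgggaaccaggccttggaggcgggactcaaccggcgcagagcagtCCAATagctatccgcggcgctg
Mcm6, chr1:128359706-128359955, minus strand: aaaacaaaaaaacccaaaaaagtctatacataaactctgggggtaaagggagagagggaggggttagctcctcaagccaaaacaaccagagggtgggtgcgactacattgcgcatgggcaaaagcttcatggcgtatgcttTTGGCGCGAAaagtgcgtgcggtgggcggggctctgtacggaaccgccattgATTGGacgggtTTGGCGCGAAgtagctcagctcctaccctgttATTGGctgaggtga
Rrm2, chr12:24708004-24708253, plus strand: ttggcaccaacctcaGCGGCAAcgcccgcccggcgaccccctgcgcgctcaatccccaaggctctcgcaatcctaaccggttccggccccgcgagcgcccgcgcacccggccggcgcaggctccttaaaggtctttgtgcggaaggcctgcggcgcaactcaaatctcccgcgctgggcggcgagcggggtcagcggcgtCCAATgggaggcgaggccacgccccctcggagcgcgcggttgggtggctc

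In Plk1 the CCAAT letters began 14 bases before the start and a CHR match began 29 bases before it. In Cdc20 the CHR letters began 18 bases before the start, with CCAAT matches at 53 and 8 bases on either side. Cdk1 held CHR, CCAAT and E2F letters together, as did Mcm5. In Mcm6 overlapping E2F letters of both orientations stood at 109 and 106 bases and again at 46 and 43 bases before the start. Mcm5 held E2F letters at 164, 152 and 149 bases, and Rrm2 held a single E2F match, 235 bases before its start. Mcm5 also held CHR letters at 221 bases and CCAAT letters at 77 and 22 bases. CCAAT letters stood at 57 and 14 bases in Mcm6 and at 50 bases in Rrm2.

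A gene with several windows was counted if any of them held a match. CCAAT letters were found for 14 of 16 mitotic genes (87.5%) and 11 of 20 replication genes (55%), beside 37.5% of all 27025 genes with a window. CHR letters were found for 10 of 16 mitotic genes (62.5%) and 5 of 20 replication genes (25%), beside 28.1% of all genes. E2F letters were found for 3 of 16 mitotic genes (18.8%) and 10 of 20 replication genes (50%), beside 9.01% of all genes. CCAAT and CHR letters occurred together for 9 mitotic genes (56.2%) and 2 replication genes (10%), beside 10.1% of all genes. The E2F letters shared bases with a CCAAT match in 2 members, Ccnb1 and Prim1. These are matches of letters in a window and not sites. Of 40 windows of members, since some genes have several, 16 held bases of their own gene's exons and were kept in these shares. The window of E2f1 lies wholly in its own exons, with 188 of 250 bases coding, as does 1 of the windows of Mcm7 without coding bases, and the overlap was 222 bases in a window of Fen1 and 134 in that of Pcna.

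The levels of these genes differed between cells of different origin. Both lung libraries stood above both cardiac libraries, and these above both tail tip libraries, in 40 of 45 members, an order found in 11.8% of all genes tested. Both cardiac libraries were above both tail tip libraries in 45 of 45 members (32.5% of all genes), both lung libraries were above both tail tip libraries in 45 of 45 (39.9%), and both lung libraries were above both cardiac libraries in 40 of 45 (35.2%). The other 5 were Nusap1 and Cdc20 among the mitotic genes and Rrm2, Ccne1 and Ccne2 among the replication genes. Cardiac and lung libraries overlapped in all of these but Ccne1, in which both cardiac libraries were above both lung libraries. Nusap1, Rrm2 and Ccne1 had their highest mean in cardiac cells.

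**Figure D1:**
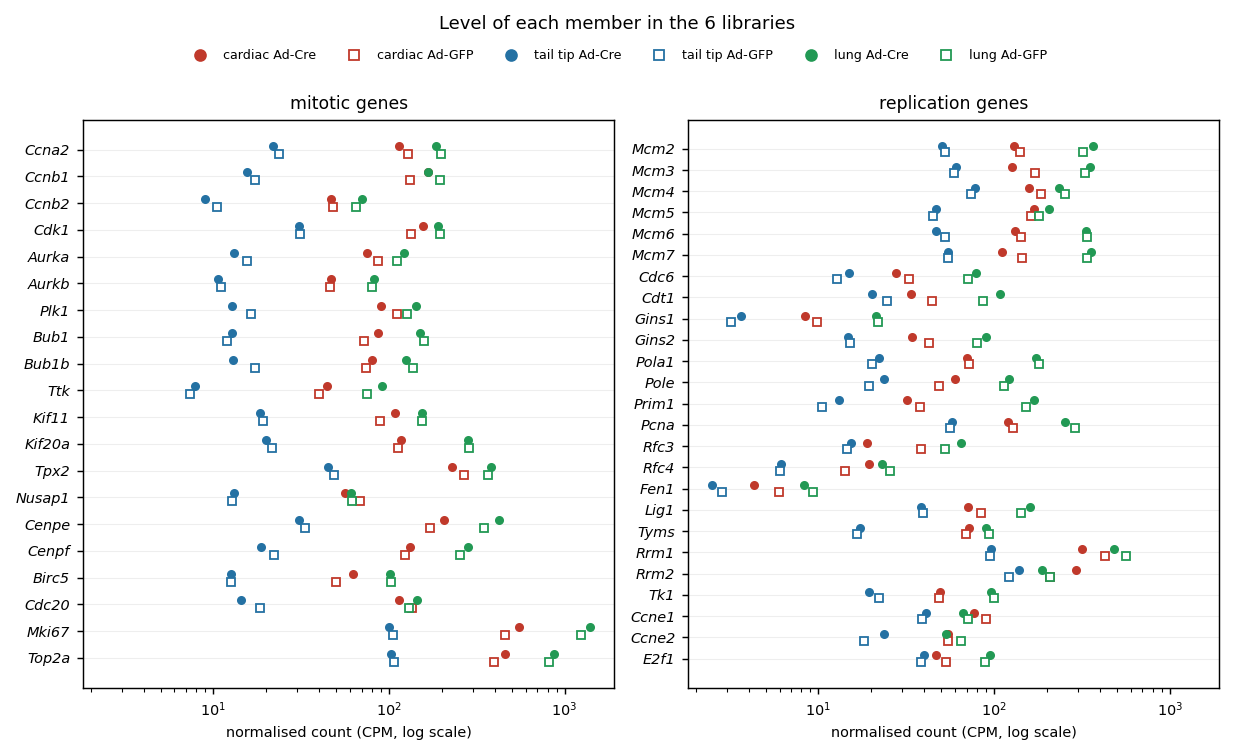
Normalised count (CPM, log axis) of each of the 45 members, mitotic genes on the left and replication genes on the right. Each point is 1 library, filled for Ad-Cre and open for Ad-GFP, and the blue tail tip points lie to the left of the red cardiac and the green lung points in every row.

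The summed macrophage markers given above ran in the opposite order, highest in tail tip and lowest in lung cells. Of these 12 markers 11 were higher in tail tip than in lung cells in the edgeR test, all but Mrc1, beside 28.2% of all genes tested. The part of these markers in the order of the members was not tested. Mitochondrial genes took 1.15% to 1.31% of counts in tail tip, 1.90% to 2.65% in cardiac and 4.40% to 4.72% in lung libraries, and their part was not tested either. In bulk RNA, fewer cycling cells and less of a gene's RNA per cell cannot be told apart. The 3 comparisons of origins share libraries, so they are not independent of each other.

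The question of the first comparison is how tail tip cells differ from lung cells. In tail tip cells 45 of 45 members were lower than in lung cells at an adjusted p under 0.05 (edgeR quasi-likelihood test, Benjamini-Hochberg over all genes), while 22.3% of all genes tested were lower and 28.2% higher. The median log2 fold change was -3.08 over the mitotic genes and -2.25 over the replication genes, and 0.06 over all genes. Within the mitotic genes values ran from -3.77 for Kif20a to -2.24 for Nusap1. Within the replication genes they ran from -3.77 for Prim1 to -0.62 for Rrm2. Without 1 library 43 to 45 members were called. The call of Rrm2 was lost without the lung Ad-GFP library (adjusted p = 0.232), the tail tip library labelled Ad-Cre (0.133) or the tail tip Ad-GFP library (0.172), and that of Ccne1 was lost without the tail tip Ad-GFP library (0.123).

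In the comparison of cardiac with tail tip cells, 43 of 45 members were higher in cardiac cells, against 15.5% of all genes. These were 20 of 20 mitotic and 23 of 25 replication genes, with median log2 fold changes of 2.41 and 1.30, and -0.06 over all genes. Mitotic genes ran from 2.02 for Top2a to 3.18 for Ccnb1. Replication genes ran from 0.35 for E2f1 to 2.07 for Tyms. Rfc3 (adjusted p = 0.0634) and E2f1 (adjusted p = 0.119) missed the threshold. Both were called without the cardiac library labelled Ad-Cre (2.62e-10 for Rfc3 and 0.0114 for E2f1), and Rfc3 also without the lung library labelled Ad-Cre (0.0328), the lung Ad-GFP library (0.0324) or the tail tip library labelled Ad-Cre (0.0219). Calls were lost for Cdt1 without the tail tip library labelled Ad-Cre (0.166) or the tail tip Ad-GFP library (0.0542). Fen1 lost its call without either lung library (0.0767 without Ad-Cre and 0.0817 without Ad-GFP) or either tail tip library (0.248 without Ad-Cre and 0.347 without Ad-GFP). With no filter on low counts Fen1 lost its call (0.0577) and Rfc3 gained one (0.000705), and DESeq2 also called Rfc3 (0.0250).

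In the comparison of cardiac with lung cells, 33 of 45 members were lower in cardiac cells and 0 were higher, against 17.6% lower and 20.8% higher among all genes. These were 15 of 20 mitotic and 18 of 25 replication genes. Here the replication genes had the larger median difference, -1.09, beside -0.71 for the mitotic genes and -0.01 over all genes. Mitotic genes ran from -1.39 for Mki67 to 0.02 for Nusap1, and replication genes from -2.20 for Prim1 to 0.31 for Rrm2. Between 27 and 36 members were called without 1 library. Calls were lost without single libraries for Ccnb2, Aurka, Kif11, Tpx2, Mcm4, Rfc3 and Rrm1, and gained for Ccnb1, Cdk1, Plk1, Rfc4, Fen1, Rrm2 and Ccne1. Calls over all genes also rose without a cardiac library and fell without a lung or tail tip library. These gains and losses are therefore not read as traits of single members. Each library and its value is as follows.

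Without the cardiac library labelled Ad-Cre, Ccnb1 (adjusted p = 0.00756), Cdk1 (0.00827), Rfc4 (0.00281) and Ccne1 (0.0444, higher in cardiac cells) passed the edgeR test, and Rrm1 lost its call (0.0960). Without the cardiac Ad-GFP library, Plk1 (0.00503), Fen1 (0.0122) and Rrm2 (0.00438, higher in cardiac cells) passed. Without the lung library labelled Ad-Cre, Ccnb2 (0.267), Aurka (0.291), Tpx2 (0.119), Mcm4 (0.0901), Rfc3 (0.150) and Rrm1 (0.114) lost their calls. Without the lung Ad-GFP library, Ccnb2 (0.0784), Kif11 (0.0742), Mcm4 (0.119) and Rrm1 (0.139) did, and Plk1 gained one (0.0377). Without the tail tip library labelled Ad-Cre, calls were lost for Ccnb2 (0.120), Aurka (0.103), Tpx2 (0.0526), Mcm4 (0.0994) and Rrm1 (0.104). Without the tail tip Ad-GFP library they were lost for the same genes, Ccnb2 (0.127), Aurka (0.111), Tpx2 (0.0592), Mcm4 (0.108) and Rrm1 (0.115).

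**Figure D2:**
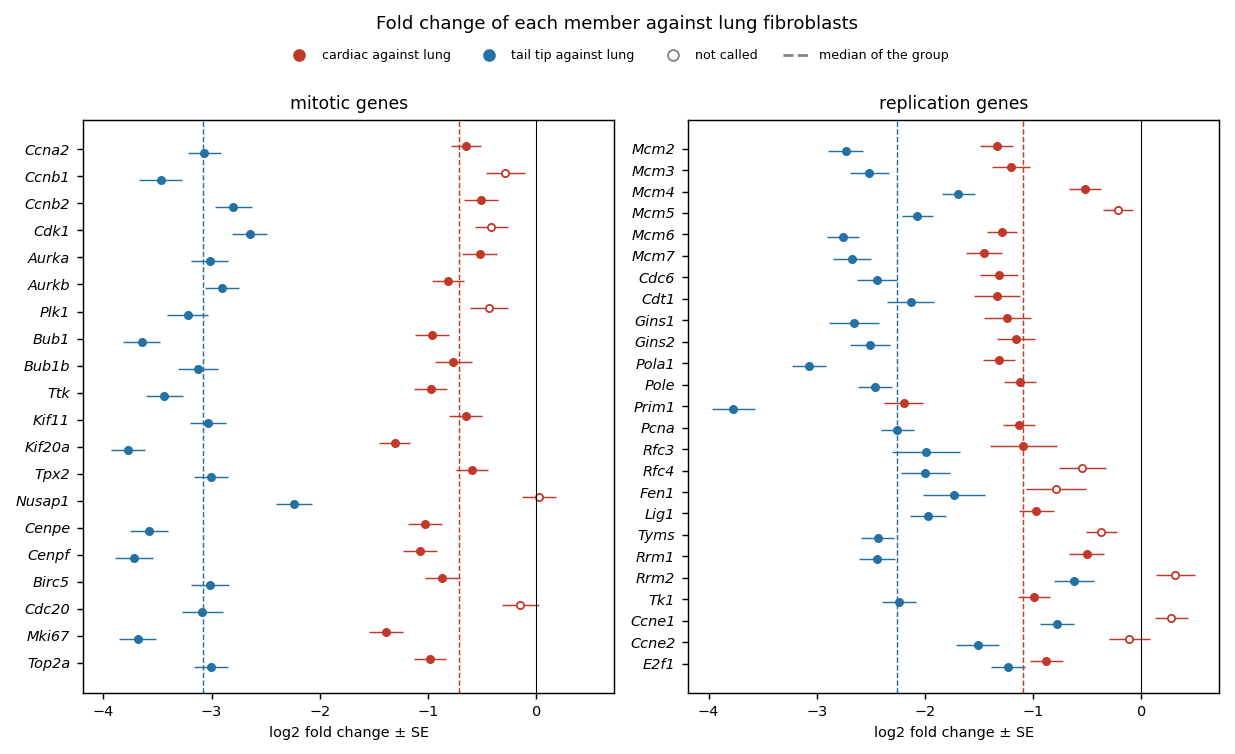
Log2 fold change (± SE) of each member in cardiac (red) and tail tip (blue) cells against lung cells, mitotic genes on the left and replication genes on the right. Open points missed an adjusted p of 0.05, and dashed lines mark group medians, which lie at -0.71 and -3.08 for mitotic and at -1.09 and -2.25 for replication genes.

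Among the mitotic genes the cyclins and their kinase come first. Ccnb1, a B-type cyclin that drives entry into mitosis, had 167 CPM in cardiac, 15.5 CPM in tail tip and 168 CPM in lung cells labelled Ad-Cre, and 131 CPM in cardiac, 17.2 CPM in tail tip and 196 CPM in lung cells with Ad-GFP. Cdk1, the kinase that cyclin B activates, had 157 CPM in cardiac, 30.6 CPM in tail tip and 189.9 CPM in lung cells labelled Ad-Cre, and 133 CPM in cardiac, 31.1 CPM in tail tip and 197 CPM in lung cells with Ad-GFP. Ccna2, cyclin A, which acts in S and G2 phase, had 115 CPM in cardiac, 21.9 CPM in tail tip and 185 CPM in lung cells labelled Ad-Cre, and 129 CPM in cardiac, 23.7 CPM in tail tip and 197 CPM in lung cells with Ad-GFP. In all of these the tail tip libraries were far below the rest, and the cardiac libraries lay below the lung libraries. The cardiac library labelled Ad-Cre nearly met the lung library labelled Ad-Cre in Ccnb1, whose difference between cardiac and tail tip cells was the largest of any member at 3.18 (SE 0.20, edgeR adjusted p = 5.8e-05), a 9.08-fold higher level. Ccnb1 (adjusted p = 0.246) and Cdk1 (0.0655) were not called between cardiac and lung cells, while Ccna2 and Ccnb2, another B-type cyclin, were lower in cardiac cells.

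The kinases of mitosis and of the spindle checkpoint were each highest in lung and lowest in tail tip cells. Plk1, polo-like kinase, needed for mitotic entry and the spindle, had 89.5 CPM in cardiac, 12.8 CPM in tail tip and 143 CPM in lung cells labelled Ad-Cre, and 112 CPM in cardiac, 16.4 CPM in tail tip and 127 CPM in lung cells with Ad-GFP. Aurkb, the kinase of the chromosomal passenger complex, had 46.5 CPM in cardiac, 10.6 CPM in tail tip and 82.4 CPM in lung cells labelled Ad-Cre, and 45.9 CPM in cardiac, 11.1 CPM in tail tip and 80.2 CPM in lung cells with Ad-GFP. Bub1, a checkpoint kinase at kinetochores, had 86.9 CPM in cardiac, 12.7 CPM in tail tip and 150.3 CPM in lung cells labelled Ad-Cre, and 71.8 CPM in cardiac, 11.99 CPM in tail tip and 158 CPM in lung cells with Ad-GFP. Neither Plk1, Aurkb nor Bub1 had overlapping origins. Bub1b, whose product restrains anaphase, had 79.6 CPM in cardiac, 12.9 CPM in tail tip and 126 CPM in lung cells labelled Ad-Cre, and 73.8 CPM in cardiac, 17.2 CPM in tail tip and 136 CPM in lung cells with Ad-GFP. Ttk, the kinase that starts the checkpoint, had 44.2 CPM in cardiac, 7.89 CPM in tail tip and 91.2 CPM in lung cells labelled Ad-Cre, and 40.1 CPM in cardiac, 7.39 CPM in tail tip and 74.9 CPM in lung cells with Ad-GFP. Together with Aurka, the spindle pole kinase, these 6 genes were all lower in tail tip than in lung cells with a median of -3.17. Between cardiac and lung cells 5 of the 6 were lower in cardiac cells, with a median of -0.79, and Plk1 was not called (adjusted p = 0.0893). Plk1 was 6.89-fold higher in cardiac than in tail tip cells, with a log2 fold change of 2.78 (SE 0.19, edgeR adjusted p = 7.89e-05).

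Spindle genes included the mitotic gene with the largest difference between tail tip and lung cells. Kif20a, a kinesin of cytokinesis, had 117 CPM in cardiac, 20.0 CPM in tail tip and 283 CPM in lung cells labelled Ad-Cre, and 113 CPM in cardiac, 21.6 CPM in tail tip and 285 CPM in lung cells with Ad-GFP. Kif11, the kinesin that pushes the spindle poles apart, had 108 CPM in cardiac, 18.5 CPM in tail tip and 154 CPM in lung cells labelled Ad-Cre, and 88.7 CPM in cardiac, 19.1 CPM in tail tip and 154 CPM in lung cells with Ad-GFP. Nusap1, which binds spindle microtubules, had 56.4 CPM in cardiac, 13.1 CPM in tail tip and 61.1 CPM in lung cells labelled Ad-Cre, and 68.1 CPM in cardiac, 12.8 CPM in tail tip and 61.2 CPM in lung cells with Ad-GFP. Kif20a separated the 3 origins widely, with a level 13.7-fold lower in tail tip than in lung cells (log2 fold change -3.77, SE 0.16, edgeR adjusted p = 6.6e-06) and 2.48-fold lower in cardiac than in lung cells (-1.31, SE 0.14, adjusted p = 0.00058). Nusap1 did not: its cardiac and lung libraries overlapped, with a difference of 0.02 (SE 0.16, adjusted p = 0.93). Tpx2, a spindle assembly factor that activates Aurka, was at -3.005 in tail tip and -0.60 in cardiac cells against lung cells, both called.

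Kinetochore and passenger genes were followed by the activator of anaphase. Cenpf, a large kinetochore protein, had 132 CPM in cardiac, 18.7 CPM in tail tip and 284 CPM in lung cells labelled Ad-Cre, and 123 CPM in cardiac, 22.2 CPM in tail tip and 255 CPM in lung cells with Ad-GFP. Cenpe, a kinetochore motor, had 205 CPM in cardiac, 30.8 CPM in tail tip and 421 CPM in lung cells labelled Ad-Cre, and 171 CPM in cardiac, 33.1 CPM in tail tip and 347 CPM in lung cells with Ad-GFP. Birc5, survivin, a chromosomal passenger protein, had 62.6 CPM in cardiac, 12.7 CPM in tail tip and 101 CPM in lung cells labelled Ad-Cre, and 49.9 CPM in cardiac, 12.6 CPM in tail tip and 103 CPM in lung cells with Ad-GFP. All 3 were lower in cardiac than in lung cells, Cenpf by a log2 fold change of -1.07 (SE 0.16, edgeR adjusted p = 0.00229). In tail tip cells Cenpf was 13.1-fold lower than in lung cells (-3.72, SE 0.18, adjusted p = 9.43e-06). Cdc20, which activates the anaphase-promoting complex, had 115 CPM in cardiac, 14.3 CPM in tail tip and 145 CPM in lung cells labelled Ad-Cre, and 134 CPM in cardiac, 18.3 CPM in tail tip and 129.9 CPM in lung cells with Ad-GFP. Its cardiac and lung libraries overlapped (-0.15, SE 0.17, adjusted p = 0.519). Cdc20 was 7.65-fold higher in cardiac than in tail tip cells, with a log2 fold change of 2.94 (SE 0.18, adjusted p = 6.07e-05).

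The proliferation marker Mki67, whose protein coats mitotic chromosomes, gave the most reads of any member in the cardiac and lung libraries. It had 549 CPM in cardiac, 99.4 CPM in tail tip and 1399.5 CPM in lung cells labelled Ad-Cre, and 459 CPM in cardiac, 105 CPM in tail tip and 1236 CPM in lung cells with Ad-GFP. Top2a, the topoisomerase that untangles chromosomes, had 460.2 CPM in cardiac, 103 CPM in tail tip and 870.0 CPM in lung cells labelled Ad-Cre, and 395 CPM in cardiac, 107 CPM in tail tip and 815 CPM in lung cells with Ad-GFP. Both genes ran in the order of lung, cardiac and tail tip with no overlap. Mki67 was 12.8-fold lower in tail tip than in lung cells (-3.68, SE 0.17, edgeR adjusted p = 8.89e-06) and 2.62-fold lower in cardiac than in lung cells (-1.39, SE 0.16, adjusted p = 0.000685), the largest cardiac difference among the mitotic genes.

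The replication genes open with the MCM subunits, which together form the ring of the replicative helicase. Mcm2 had 129.5 CPM in cardiac, 50.4 CPM in tail tip and 364 CPM in lung cells labelled Ad-Cre, and 141 CPM in cardiac, 52.4 CPM in tail tip and 319.7 CPM in lung cells with Ad-GFP. Mcm5 had 169 CPM in cardiac, 46.6 CPM in tail tip and 204 CPM in lung cells labelled Ad-Cre, and 162 CPM in cardiac, 44.7 CPM in tail tip and 179.8 CPM in lung cells with Ad-GFP. Mcm7 had 111 CPM in cardiac, 54.7 CPM in tail tip and 357 CPM in lung cells labelled Ad-Cre, and 144 CPM in cardiac, 54.4 CPM in tail tip and 339.8 CPM in lung cells with Ad-GFP. Mcm5 in cardiac cells lay just below the lung libraries, whereas Mcm2 and Mcm7 lay far below them. Mcm6 had 132 CPM in cardiac, 46.7 CPM in tail tip and 334 CPM in lung cells labelled Ad-Cre, and 143 CPM in cardiac, 52.8 CPM in tail tip and 338 CPM in lung cells with Ad-GFP. Cardiac against lung, 5 of 6 subunits were lower, with Mcm7 at -1.45 (SE 0.17, edgeR adjusted p = 0.000723) and Mcm2 at -1.34 (SE 0.15, adjusted p = 0.0007), and Mcm5 was not called (-0.22, SE 0.14, adjusted p = 0.261). In tail tip cells all 6 were lower than in lung cells, with a median of -2.59 and the largest difference in Mcm6 at -2.76 (SE 0.15, adjusted p = 1.44e-05). Cardiac against tail tip, Mcm5 had the largest difference of the ring at 1.86 (SE 0.14, adjusted p = 0.000131).

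Per kilobase of exon, Mcm4 had the highest level of the ring and Mcm2 the lowest in the cardiac and tail tip libraries. The CPM per kilobase of Mcm4 was 44.3 in cardiac and 21.6 in tail tip cells labelled Ad-Cre, and 51.3 in cardiac and 20.7 in tail tip cells with Ad-GFP. That of Mcm2 was 18.6 in cardiac and 7.24 in tail tip cells labelled Ad-Cre, and 20.3 in cardiac and 7.53 in tail tip cells with Ad-GFP. In the lung libraries Mcm3 was highest, with 93.8 (Ad-Cre) and 88.4 (Ad-GFP) CPM per kilobase, and Mcm5 lowest, with 51.2 (Ad-Cre) and 45.02 (Ad-GFP). The highest subunit was thus 1.83 to 2.98 times the lowest in a library, with lengths from an annotation of an earlier build. Mcm6 and Mcm7 lay between these in all 6 libraries. Across origins the mean CPM per kilobase of Mcm6 was 29.5 in cardiac, 10.7 in tail tip and 72.0 in lung cells, and that of Mcm7 was 28.9 in cardiac, 12.3 in tail tip and 78.7 in lung cells.

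Licensing factors and GINS, which turn the loaded ring into an active helicase, were lower in cells of both other origins than in lung cells. Cdc6, which recruits the ring to origins, had 27.5 CPM in cardiac, 14.9 CPM in tail tip and 78.8 CPM in lung cells labelled Ad-Cre, and 32.8 CPM in cardiac, 12.8 CPM in tail tip and 71.5 CPM in lung cells with Ad-GFP. Cdt1, its loading partner, had 33.5 CPM in cardiac, 20.2 CPM in tail tip and 108 CPM in lung cells labelled Ad-Cre, and 44.4 CPM in cardiac, 24.48 CPM in tail tip and 86.1 CPM in lung cells with Ad-GFP. Gins1, a GINS subunit, had 8.41 CPM in cardiac, 3.63 CPM in tail tip and 21.1 CPM in lung cells labelled Ad-Cre, and 9.81 CPM in cardiac, 3.18 CPM in tail tip and 21.9 CPM in lung cells with Ad-GFP. Cdc6 and Cdt1 were lower than in lung cells in the cardiac libraries, with log2 fold changes of -1.31 and -1.33, and Gins1 with -1.24. Gins2, another GINS subunit, was at -1.16 in cardiac and -2.51 in tail tip cells against lung cells. Both changes passed the test.

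The polymerase and primase genes had a median difference of -3.07 between tail tip and lung cells. Pola1, the catalytic subunit of the polymerase that starts new strands, had 70.0 CPM in cardiac, 22.1 CPM in tail tip and 174 CPM in lung cells labelled Ad-Cre, and 72.0 CPM in cardiac, 20.1 CPM in tail tip and 179.6 CPM in lung cells with Ad-GFP. Prim1, the primase that lays down its RNA primers, had 31.9 CPM in cardiac, 13.02 CPM in tail tip and 169 CPM in lung cells labelled Ad-Cre, and 37.7 CPM in cardiac, 10.5 CPM in tail tip and 152 CPM in lung cells with Ad-GFP. Prim1 stood 4.59-fold lower in cardiac than in lung cells (-2.20, SE 0.18, edgeR adjusted p = 0.000177), the largest difference of any member between cardiac and lung cells, and 13.6-fold lower in tail tip than in lung cells (-3.77, SE 0.20, adjusted p = 1.22e-05). Pola1 was 8.40-fold lower in tail tip than in lung cells (-3.07, SE 0.16, adjusted p = 1.15e-05). Pole, the catalytic subunit of the leading-strand polymerase, was at -1.13 in cardiac and -2.46 in tail tip cells against lung cells, both called.

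The clamp, its loader and the enzymes that join fragments came next. Pcna, the sliding clamp, had 119.6 CPM in cardiac, 57.4 CPM in tail tip and 253 CPM in lung cells labelled Ad-Cre, and 128 CPM in cardiac, 56.2 CPM in tail tip and 290.2 CPM in lung cells with Ad-GFP. Rfc3, a subunit of the clamp loader, had 18.9 CPM in cardiac, 15.3 CPM in tail tip and 65.3 CPM in lung cells labelled Ad-Cre, and 38.2 CPM in cardiac, 14.6 CPM in tail tip and 52.6 CPM in lung cells with Ad-GFP. Rfc4, another loader subunit, had 19.4 CPM in cardiac, 6.10 CPM in tail tip and 23.0 CPM in lung cells labelled Ad-Cre, and 14.1 CPM in cardiac, 6.07 CPM in tail tip and 25.4 CPM in lung cells with Ad-GFP. The cardiac libraries stood apart from each other in Rfc3, and the origins did not overlap in Pcna, Rfc3 or Rfc4. A processed copy of Pcna, Pcna-ps2, had 515 and 511 reads in cardiac (Ad-Cre and Ad-GFP), 284 and 229 in tail tip (Ad-Cre and Ad-GFP) and 49 and 127 in lung libraries (Ad-Cre and Ad-GFP), so the count of Pcna is uncertain. The count of Fen1 needs care as well. Lig1, the ligase that seals fragments, had 71.0 CPM in cardiac, 38.2 CPM in tail tip and 161 CPM in lung cells labelled Ad-Cre, and 84.2 CPM in cardiac, 39.2 CPM in tail tip and 142 CPM in lung cells with Ad-GFP. Fen1, the nuclease that trims flaps, had 4.29 CPM in cardiac, 2.48 CPM in tail tip and 8.30 CPM in lung cells labelled Ad-Cre, and 5.99 CPM in cardiac, 2.83 CPM in tail tip and 9.34 CPM in lung cells with Ad-GFP. Fen1 had the lowest level per kilobase of any replication gene in all 6 libraries, between 1.02 CPM per kilobase in tail tip cells labelled Ad-Cre and 3.85 in lung cells with Ad-GFP. Its exons overlap those of Tmem258 on the opposite strand, which had 950 reads in cardiac cells labelled Ad-Cre and 413 with Ad-GFP. Whether counting used strand is not given, so counts of Fen1 and of other members with such neighbours are uncertain: Ccna2, Kif20a, Nusap1, Cdc20, Mcm7, Gins2, Rfc4, Lig1, Tk1 and Ccne2.

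The enzymes of nucleotide synthesis did not share one order of origins. Rrm1, the large subunit of ribonucleotide reductase, had 317 CPM in cardiac, 96.7 CPM in tail tip and 484 CPM in lung cells labelled Ad-Cre, and 426 CPM in cardiac, 95.01 CPM in tail tip and 565 CPM in lung cells with Ad-GFP. Rrm2, its small subunit, had 293 CPM in cardiac, 139 CPM in tail tip and 188 CPM in lung cells labelled Ad-Cre, and 208 CPM in cardiac, 121 CPM in tail tip and 209.6 CPM in lung cells with Ad-GFP. The subunits of this enzyme thus had different orders: Rrm1 was highest in lung cells, and Rrm2 had its highest single value in the cardiac library labelled Ad-Cre, with the other cardiac library between the lung libraries. Tyms, thymidylate synthase, had 72.1 CPM in cardiac, 17.3 CPM in tail tip and 89.7 CPM in lung cells labelled Ad-Cre, and 69.6 CPM in cardiac, 16.5 CPM in tail tip and 93.3 CPM in lung cells with Ad-GFP. Tk1, thymidine kinase, had 49.5 CPM in cardiac, 19.5 CPM in tail tip and 95.7 CPM in lung cells labelled Ad-Cre, and 48.5 CPM in cardiac, 22.0 CPM in tail tip and 99.96 CPM in lung cells with Ad-GFP. Cardiac against tail tip, Tyms was 4.19-fold higher (2.07, SE 0.15, edgeR adjusted p = 0.000103) and Rrm1 3.83-fold higher (1.94, SE 0.17, adjusted p = 0.000197). Tyms missed the threshold between cardiac and lung cells (-0.37, SE 0.14, adjusted p = 0.0822), where Tk1 was lower in cardiac cells (-0.996). Against lung cells Rrm2 was at -0.62 in tail tip cells, the smallest tail tip difference of all members, while Rrm1 was at -2.44.

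The genes that act before S phase had the smallest median differences from lung cells. Ccne1, cyclin E, which with its kinase starts S phase, had 76.6 CPM in cardiac, 41.1 CPM in tail tip and 66.8 CPM in lung cells labelled Ad-Cre, and 90.5 CPM in cardiac, 39.1 CPM in tail tip and 70.9 CPM in lung cells with Ad-GFP. Ccne2, the other cyclin E, had 54.9 CPM in cardiac, 23.5 CPM in tail tip and 53.5 CPM in lung cells labelled Ad-Cre, and 54.7 CPM in cardiac, 18.1 CPM in tail tip and 64.9 CPM in lung cells with Ad-GFP. E2f1, the transcription factor upstream of many replication genes, had 46.6 CPM in cardiac, 39.8 CPM in tail tip and 94.5 CPM in lung cells labelled Ad-Cre, and 53.4 CPM in cardiac, 38.4 CPM in tail tip and 89.4 CPM in lung cells with Ad-GFP. The cardiac libraries were above the lung libraries in Ccne1 and overlapped them in Ccne2, and in E2f1 they lay just above the tail tip libraries. Their median difference between tail tip and lung cells was -1.23, the smallest of any role, and all 3 passed the test. Only E2f1 was called between cardiac and lung cells (-0.88, SE 0.15, edgeR adjusted p = 0.00449).

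The mitotic and the replication genes can be compared within each library by their mean log2 CPM. The mitotic less the replication mean was 0.93 in the cardiac library labelled Ad-Cre and 0.71 in the cardiac Ad-GFP library. It was -0.44 in the tail tip library labelled Ad-Cre and -0.27 with Ad-GFP, and 0.65 in the lung library labelled Ad-Cre and 0.62 with Ad-GFP. Both tail tip libraries were thus the ones in which the mitotic genes lay below the replication genes, and both cardiac libraries lay above both lung libraries on this measure. Averaged over the viruses, the difference was 0.82 in cardiac, -0.35 in tail tip and 0.63 in lung cells. By summed CPM, mitotic over replication, the ratio was 1.32 in cardiac, 0.553 in tail tip and 1.29 in lung cells labelled Ad-Cre, and 1.12 in cardiac, 0.617 in tail tip and 1.22 in lung cells with Ad-GFP. The tail tip libraries were lowest on both measures. By summed CPM the cardiac and lung libraries overlapped, with a mean ratio of 1.22 in cardiac and 1.26 in lung cells. No test was made of these differences, because the members are not replicates.

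As a share of all counts, mitotic genes took 0.299% and 0.264% in cardiac (Ad-Cre and Ad-GFP), 0.0535% and 0.0577% in tail tip (Ad-Cre and Ad-GFP), and 0.532% and 0.503% in lung libraries (Ad-Cre and Ad-GFP). Replication genes took 0.227% and 0.236% in cardiac (Ad-Cre and Ad-GFP), 0.0968% and 0.0936% in tail tip (Ad-Cre and Ad-GFP), and 0.411% and 0.412% in lung libraries (Ad-Cre and Ad-GFP). The mitotic share spanned the wider range across origins. Tail tip cells still held between 235 and 3407 reads of each mitotic gene and at least 82 of each replication gene, so these low levels were measured above the floor of 3 counts.

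**Figure D3:**
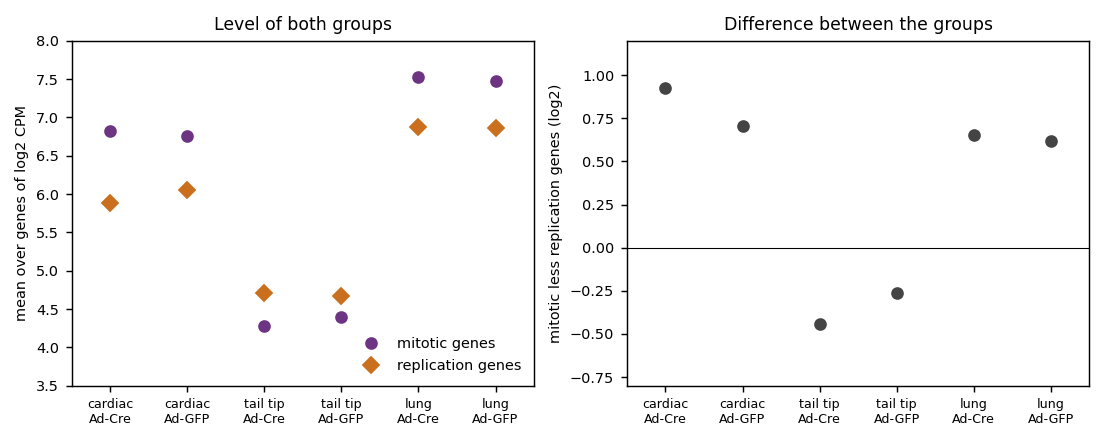
Left, mean log2 CPM of the 20 mitotic (circles) and 25 replication genes (diamonds) in each library. Right, the mitotic less the replication mean, which is above 0 in both cardiac and both lung libraries and lies at -0.44 and -0.27 in the tail tip libraries.

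No member passed the test for the virus. In a model with one virus term shared by the origins, 0 of 45 members and 0% of the 18143 genes passed an adjusted p of 0.05 in edgeR, with 367 genes at an unadjusted p under 0.05. DESeq2 called 0 members and 3 genes. Fold changes of the members ran from -0.28 (SE 0.23) for Fen1 to 0.23 (SE 0.12) for Pole on the log2 scale, with medians of -0.0023 over the mitotic and -0.04 over the replication genes. The lowest adjusted p over all genes was 0.9996, and the fit had 2 residual degrees of freedom.

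Within an origin each virus has 1 library, so the following ratios have no replicate check and their 95% intervals cover counting error only. In cardiac cells 1 of 45 members was past 2-fold between the library labelled Ad-Cre and the Ad-GFP library, where 20.3% of all genes were. In tail tip cells it was 0 of 45, with 3.1% of all genes, and in lung cells 0 of 45, with 7.69%. The SD of the log2 ratios over the members was 0.30 in cardiac, 0.17 in tail tip and 0.15 in lung cells, beside 1.01 in cardiac, 0.39 in tail tip and 0.54 in lung cells over all genes. Members had at least 82 reads in every library, whereas all genes include some with few reads in an origin. These shares and SDs are therefore not matched for expression level.

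In cardiac cells the mitotic and replication genes had medians on opposite sides of no difference. The median log2 ratio of Ad-Cre over Ad-GFP was 0.11 over the mitotic and -0.21 over the replication genes, and 0 over all genes. Over the 56 other mitosis genes described at the end it was -0.0061, and over the 51 other replication genes -0.019, so the opposite medians of the members were not seen in those lists. Of the mitotic genes 13 of 20 had a ratio above 1, and of the replication genes 18 of 25 had one below 1. Summed over the mitotic genes the libraries held 89829 reads with Ad-Cre and 89159 with Ad-GFP, a ratio of 1.07 after scaling (1.06 to 1.08). Replication genes summed to 68267 reads with Ad-Cre and 79824 with Ad-GFP, a ratio of 0.911 (0.902 to 0.920). Beside this, mesothelial markers summed to 116 CPM with Ad-Cre and 56.7 CPM with Ad-GFP in cardiac cells. Among them Msln, Upk3b and Upk1b were higher with Ad-Cre. Lrrn4 was lower, at 9.43 CPM with Ad-Cre and 32.2 CPM with Ad-GFP, and Wt1 was similar, at 8.84 CPM and 9.44 CPM. Epithelial and macrophage markers differed as given above. The part of all these markers was not tested.

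Rfc3 had 576 reads with Ad-Cre and 1244 with Ad-GFP in cardiac cells, a ratio of 0.493 (0.446 to 0.545). Without TMM factors the ratio was no longer past 2-fold. Rrm2 had 8942 reads with Ad-Cre and 6769 with Ad-GFP in cardiac cells, a ratio of 1.41 (1.36 to 1.45). Rfc4 had 593 reads with Ad-Cre and 458 with Ad-GFP in cardiac cells, a ratio of 1.38 (1.22 to 1.56). Members of one complex thus had ratios on both sides of 1, as Rrm1 had a ratio of 0.743 beside Rrm2 and Rfc3 stood beside Rfc4. Fen1 had 131 reads with Ad-Cre and 195 with Ad-GFP in cardiac cells, a ratio of 0.716 (0.569 to 0.897). Ccnb1 had 5088 reads with Ad-Cre and 4262 with Ad-GFP in cardiac cells, a ratio of 1.27 (1.22 to 1.32). Birc5 had 1911 reads with Ad-Cre and 1623 with Ad-GFP in cardiac cells, a ratio of 1.25 (1.17 to 1.34). Ccnb1 and Birc5 were the highest of the mitotic genes. The lowest of them were Plk1 and Nusap1. Plk1 had 2734 reads with Ad-Cre and 3633 with Ad-GFP in cardiac cells, a ratio of 0.802 (0.762 to 0.843). Nusap1 had 1723 reads with Ad-Cre and 2215 with Ad-GFP in cardiac cells, a ratio of 0.829 (0.778 to 0.883). By role, the 3 kinetochore and passenger genes all had ratios above 1, with a median log2 ratio of 0.26, as did Mki67 and Top2a (0.24). Both licensing genes (-0.33), both GINS genes (-0.27) and both genes of flap trimming and ligation (-0.36) had ratios below 1. Other roles went against this split. Among the mitotic genes Cdc20 was at -0.23, and the spindle genes had a median of -0.09 with 2 of 4 above 1. Among the replication genes, nucleotide synthesis had a median of 0.04 with 3 of 4 above 1. The remaining roles had ratios on both sides of 1.

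In tail tip cells the medians had the opposite signs. That of the replication genes was smaller in size than in cardiac cells, and that of the mitotic genes was of similar size. The median log2 ratio was -0.11 over the mitotic and 0.05 over the replication genes, and 0.01 over all genes. Summed reads gave a ratio of 0.928 (0.909 to 0.948) for the mitotic and 1.04 (1.02 to 1.05) for the replication genes. Bub1b had 428 reads with Ad-Cre and 548 with Ad-GFP in tail tip cells, a ratio of 0.75 (0.659 to 0.853). Cdc20 had 473 reads with Ad-Cre and 583 with Ad-GFP in tail tip cells, a ratio of 0.779 (0.689 to 0.881). Ccne2 had 777 reads with Ad-Cre and 575 with Ad-GFP in tail tip cells, a ratio of 1.30 (1.16 to 1.45). Bub1b and Cdc20 had the lowest ratios of the mitotic genes and Ccne2 the highest of all members. Prim1 had 431 reads with Ad-Cre and 333 with Ad-GFP in tail tip cells, a ratio of 1.24 (1.07 to 1.44). Cdt1 had 668 reads with Ad-Cre and 778 with Ad-GFP in tail tip cells, a ratio of 0.825 (0.742 to 0.916). The remaining genes picked by size were near or within counting error: Ttk had a ratio of 1.07 (0.891 to 1.28), Bub1 1.06 (0.919 to 1.22) and Fen1 0.875 (0.641 to 1.19).

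In lung cells the medians were 0.05 over the mitotic and -0.02 over the replication genes, beside 0.03 over all genes. Summed reads gave 1.07 (1.06 to 1.07) for the mitotic and 1.00 (0.995 to 1.01) for the replication genes. Cdt1 had 2777 reads with Ad-Cre and 2507 with Ad-GFP in lung cells, a ratio of 1.26 (1.19 to 1.33). Rfc3 had 1674 reads with Ad-Cre and 1532 with Ad-GFP in lung cells, a ratio of 1.24 (1.16 to 1.33). Ttk had 2339 reads with Ad-Cre and 2183 with Ad-GFP in lung cells, a ratio of 1.22 (1.15 to 1.29). Cdt1 and Rfc3 had the highest ratios in lung cells and were below 1 in cardiac cells. Cenpe had 10795 reads with Ad-Cre and 10103 with Ad-GFP in lung cells, a ratio of 1.21 (1.18 to 1.25). Ccne2 had 1373 reads with Ad-Cre and 1891 with Ad-GFP in lung cells, a ratio of 0.825 (0.769 to 0.884). Rrm1 had 12419 reads with Ad-Cre and 16472 with Ad-GFP in lung cells, a ratio of 0.856 (0.836 to 0.877). Ccne2 was thus lowest in lung and highest in tail tip cells. Ccnb1 had a ratio of 0.858 (0.825 to 0.893) and Bub1b of 0.922 (0.88 to 0.966).

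**Figure D4:**
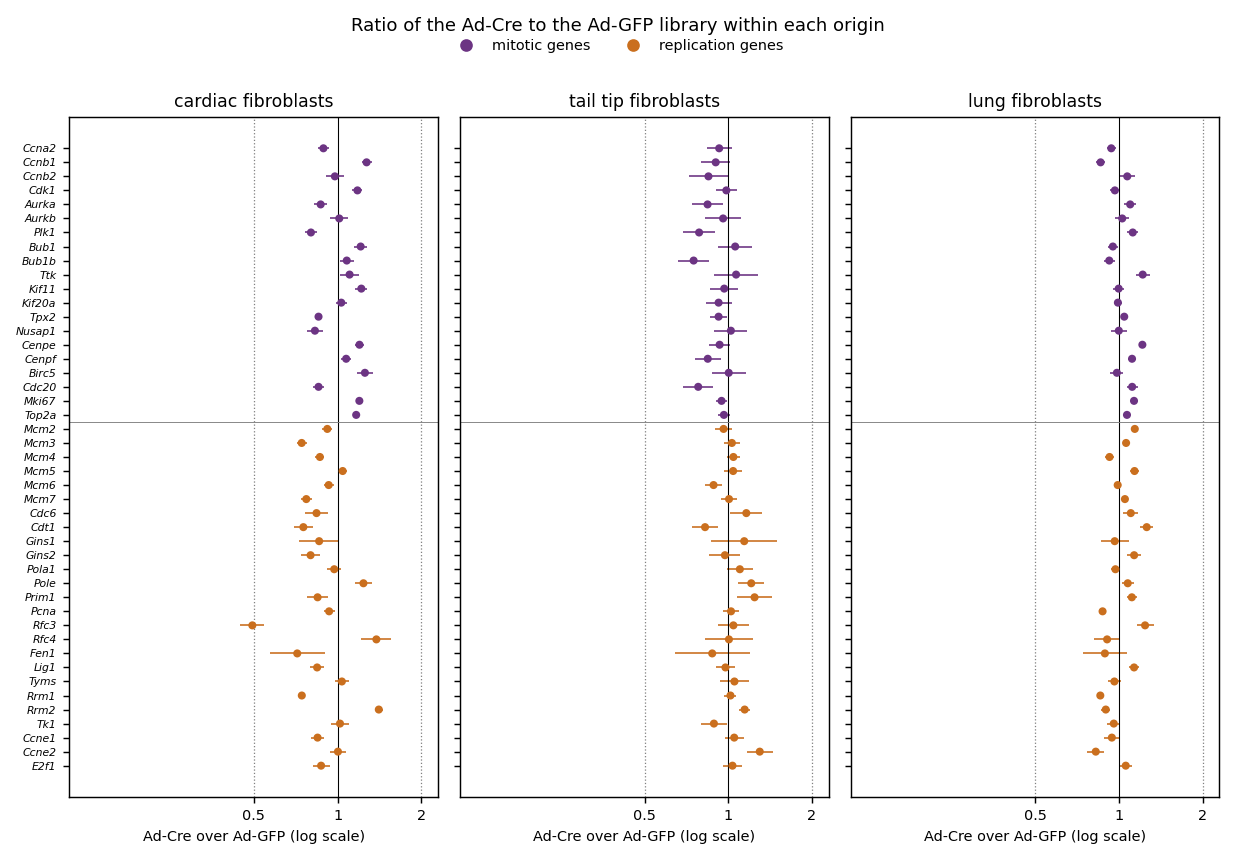
Ratio of CPM in the library labelled Ad-Cre over the Ad-GFP library (log axis) for each member in cardiac, tail tip and lung cells, with 95% intervals for counting error only. Dotted lines mark 2-fold, which only Rfc3 in cardiac cells passes, and points lie on both sides of 1 in each origin.

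Counting intervals lay wholly above 1 for 15 members (31.8% of all genes) and below 1 for 22 (33.2%) in cardiac cells. In tail tip cells they lay above 1 for 5 members (15.4% of all genes) and below 1 for 11 (14.2%). In lung cells they lay above 1 for 21 members (20.8% of all genes) and below 1 for 9 (18.6%). In 21 of 45 members, 10 mitotic and 11 replication genes, the intervals lay on opposite sides of 1 in at least 2 origins. The share of all genes with such opposite intervals was not computed, so this count is not read as a trait of the members. Whether the origins differ in their response was not tested, since that difference is the residual of the only model that 1 library per group allows.

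Other genes of the same processes, chosen with earlier results of these data known, were also tested. Among all genes 22.3% were lower in tail tip than in lung cells, and 15.5% were higher in cardiac than in tail tip cells. Cardiac against lung, 17.6% of all genes were lower and 20.8% higher. Of 56 other mitosis genes, 56 were lower in tail tip than in lung cells with a median log2 fold change of -3.04, 56 were higher in cardiac than in tail tip cells (2.21), and 41 were lower and 1 higher in cardiac than in lung cells (-0.85). Troap had the largest loss in tail tip against lung cells, at -4.16 (SE 0.23), and Anln, a cytokinesis protein, the largest rise in cardiac against tail tip cells, at 3.17 (SE 0.17). Of 51 other replication genes, 50 were lower in tail tip than in lung cells (-1.90), 43 were higher in cardiac than in tail tip cells (1.16), and 39 were lower and 1 higher in cardiac than in lung cells (-0.97). E2f7, a repressor among the E2F factors, had the largest difference between tail tip and lung cells, at -3.48 (SE 0.20). The mitosis list again had the larger median difference between tail tip and lung cells. No virus effect was called in any of these.

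Regulators upstream of these genes were called in both directions. Of 9 G1 cyclins and kinases, 7 were lower and 1 higher in tail tip than in lung cells, beside 22.3% lower and 28.2% higher among all genes. The higher one was Ccnd2, a D-type cyclin, which rose by 1.62 (SE 0.17, edgeR adjusted p = 0.000268) in tail tip and by 2.24 (SE 0.18, adjusted p = 0.000137) in cardiac cells against lung cells. Its level was 1186 CPM in cardiac, 654 CPM in tail tip and 223 CPM in lung cells labelled Ad-Cre, and 739 CPM in cardiac, 571 CPM in tail tip and 178 CPM in lung cells with Ad-GFP. Cdk4, a partner of D-type cyclins, was lower in both, at -1.32 in cardiac and -1.59 in tail tip against lung cells. Of the 7 genes for inhibitors of these kinases, 3 were higher and 3 lower in tail tip than in lung cells, beside the same shares of all genes.

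Cdkn1a, the inhibitor p21, had 606 CPM in cardiac, 411 CPM in tail tip and 55.4 CPM in lung cells labelled Ad-Cre, and 463 CPM in cardiac, 395 CPM in tail tip and 56.8 CPM in lung cells with Ad-GFP. Cdkn2a, which encodes the inhibitor p16 and p19ARF, had 9.30 CPM in cardiac, 40.2 CPM in tail tip and 61.5 CPM in lung cells labelled Ad-Cre, and 11.3 CPM in cardiac, 44.3 CPM in tail tip and 59.7 CPM in lung cells with Ad-GFP. Cdkn1a was thus low in lung cells, at a log2 fold change of 2.84 (SE 0.17, edgeR adjusted p = 2.18e-05) in tail tip and 3.24 (SE 0.17, adjusted p = 3.15e-05) in cardiac against lung cells. Cdkn2a was lowest in cardiac cells, at -2.56 (SE 0.17, edgeR adjusted p = 7.11e-05) against lung and -2.04 (SE 0.17, adjusted p = 0.000172) against tail tip cells. Of 13 genes of the RB and DREAM complexes that were found, 7 were lower and 2 higher in tail tip than in lung cells, beside 22.3% lower and 28.2% higher among all genes. Lin9, a DREAM subunit, had the largest fall there, with a log2 fold change of -2.66 (SE 0.17), and it was at 1.74 (SE 0.16) in cardiac against tail tip cells.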

How the data were processed

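Polyadenylated RNA of 6 fibroblast libraries was analysed from the gene count table that the authors deposited, which holds raw counts per gene. STAR 2.0.7 and the mm39 build are named in the submitters' processing notes, without their roles; counting tool, annotation, strand setting and filters: not given in the sources used here. The labels' name for the table mentions another subject, so libraries were matched by column names. Symbols were found for 51884 of 57180 identifiers, and 131 identifiers shared one. edgeR 4.0.16 in R 4.3.3 was used with filterByExpr by origin (minimum count 10), TMM factors (0.964 to 1.03) and a quasi-likelihood fit with origin and virus as additive terms. Benjamini-Hochberg adjustment ran over 18143 genes, with a threshold of 0.05. SEs were computed from the fold change and its F statistic. Ratios within an origin carry exact conditional binomial 95% intervals, and medians of log2 ratios used a prior count of 2. Promoter windows came from RefSeq. The members and lists were chosen with earlier results of these data known. Genes named with values were the 3 largest called per group and comparison, the largest ratios per origin, and fixed representatives of each role. The fit was also run on simulated counts with planted changes. Their spread was set below that of these data, so that run does not bear on the calls. Alternatives were DESeq2 1.42.0, other scaling, no filter, a non-robust fit, other prior counts and leaving libraries out. Total counts were 26170316 to 33779069, and intervals cover counting error only.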

Additional observations from a re-analysis of the deposited data

Results flagged for a closer look

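Medians within an origin had opposite signs in different origins, and these differences were not tested, since each origin has 1 library per virus. The median log2 ratio of Ad-Cre over Ad-GFP over the mitotic genes was 0.11 in cardiac cells beside -0.11 in tail tip cells. Over the replication genes it was -0.21 in cardiac cells beside 0.05 in tail tip cells. The mitotic less the replication median was 0.32 in cardiac cells beside -0.16 in tail tip cells. In cardiac cells the same median was -0.0061 over 56 other mitosis genes and -0.019 over 51 other replication genes, nearly without such a difference. Tail tip and lung cells also differed in sign, with a mitotic median of -0.11 in tail tip cells beside 0.05 in lung cells, a replication median of 0.05 in tail tip cells beside -0.02 in lung cells, and a difference of -0.16 in tail tip cells beside 0.07 in lung cells. Over the 56 other mitosis genes the median was -0.07 in tail tip cells and 0.06 in lung cells. Over the 51 other replication genes it was 0.05 in tail tip cells and 0.04 in lung cells, so their signs did not differ.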

How the results depend on the processing

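No paired analysis was possible because each group has 1 library, so replicate numbers pair nothing beyond origin; the virus test itself already pairs the libraries of each of the 3 origins, since origin is a term of its model. The number of members called without 1 library was 27 to 36 for cardiac against lung, 41 to 45 for cardiac against tail tip, 43 to 45 for tail tip against lung and 0 for the virus. Under DESeq2, other scaling, no filter or a non-robust fit it was 33 to 34, 43 to 44, 45 and 0 for the same comparisons. Calls over all genes changed without 1 library in each comparison of origins as well. Calls lost or gained are therefore not read as traits of single members. No called member reversed. Without a filter on low counts, Plk1 gained a call between cardiac and lung cells (edgeR adjusted p = 0.0448), and between cardiac and tail tip cells Fen1 lost one while Rfc3 gained one, which DESeq2 also gave. Uncalled values did reverse: without 1 library the virus effect on the log2 scale ran between -0.20 and 0.064 for Mcm3, -0.18 and 0.040 for Mcm7, -0.49 and 0.19 for Rfc3, -0.089 and 0.24 for Rfc4, and -0.17 and 0.19 for Ccne2, and cardiac against lung ran between -0.37 and 0.082 for Cdc20 and -0.33 and 0.13 for Ccne2. Alternatives chosen after seeing the data gave a virus effect without both cardiac libraries of 0.053 for Mcm3, 0.18 for Rfc3 and -0.086 for Rfc4, and without both tail tip libraries of -0.17 for Ccne2. In cardiac cells, library totals without TMM factors gave a mitotic median log2 ratio of 0.18 and 0 members past 2-fold, and means in place of medians gave 0.22 for mitotic less replication. The cause was not tested. Depth was at least 82 reads for every member, and 1 library per group leaves differences within an origin without a replicate check.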
